A study of Mus musculus with 9 samples.

Results

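Cd5, Cd6, Tespa1, Themis, Tox, Cd69, Cd2, Cd28 and Itm2a are surface coreceptors, signalling proteins and a nuclear factor that mark or steer the selection of thymocytes. These 9 genes were taken by name out of 53380 entries in each count table, and all 9 were among the 14098 genes that passed the filter on low counts. They were chosen from measured differences between the MYC levels in these same libraries, so those differences describe the genes and carry no p-value here. The cells were a mouse line of T-ALL, a leukaemia of immature T cells, that carries a human MYC transgene (hMYC) under the control of a doxycycline-repressed transactivator. Mock treatment gave MYC on, doxycycline at 20 pg/mL gave MYC intermediate and at 500 pg/mL MYC off, with 3 libraries for each level and harvest after 48 hours. All groups carry both transgenes, EμSRα-tTA and tet-O-MYC, and come from tumor cells of FVB/N mice, so none is a thymocyte with normal MYC control. The transactivator is driven by an immunoglobulin enhancer with the SRα promoter, the cells were grown in medium with serum, and whether the sequenced line was 1 clone is not given in the sources used here.

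A developing T cell tests its newly assembled T cell receptor (TCR) in the thymus, and the strength of that signal decides whether the cell dies, is rescued (positive selection) or is deleted. Coreceptors such as CD5 and CD6 hold the signal down, adaptors such as THEMIS and TESPA1 carry and tune it, and genes such as Cd69, Tox and Itm2a are switched on in cells that have received it. CD2 and CD28 add adhesion and costimulation on the same surface.

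Levels are given as CPM, the count of a gene relative to the summed counts of its library, since RNA per cell was not quantified. In these bulk libraries, more cells that express a gene and more RNA of that gene per cell cannot be told apart. Totals ran from 18705516 to 39678799 counts per library, and the members were covered by 12 counts (the lowest, for Cd69) to 25514 counts (the highest, for Cd6) in a library. hMYC followed the labels, with 1260 ± 75.4, 408.3 ± 23.0 and 3.785 ± 0.454 CPM in MYC on, MYC intermediate and MYC off (SD, n = 3 each). Correlations between replicates were 0.995 to 0.998 (Pearson's r of log2 CPM, taken across genes, so that its n is not a number of replicates). The lowest was between MYC intermediate replicates 1 and 3, and an r taken across genes does not test whether a library stood apart. The T cell label fitted the markers: all 14 T cell markers were detected, and their summed level was 8006 to 8465 CPM in MYC on, 13301 to 14764 CPM in MYC intermediate and 17446 to 18772 CPM in MYC off. Trbc2 was the largest part of this sum, and Trbc1 averaged only 0.254, 0.458 and 0.724 CPM in these groups. Among the markers with 0 counts in all 9 libraries were Ms4a1 and Pax5 of B cells, Lyz2 and Adgre1 of myeloid cells, Ncr1 and Klrk1 of NK cells and Cdh5 and Kdr of endothelium. Other markers of these lists were expressed. In MYC on and MYC off, Ighm had 85.0 and 32.7 CPM, Csf1r 24.8 and 19.5, and Itgam 3.88 and 22.1. Gzma had 3.93 and 37.1 CPM, Prf1 1.86 and 17.7, Pecam1 83.8 and 207.6, and Pdgfrb 8.10 and 8.51. Of the other lists, the summed markers of NK cells (5.412 to 6.255, 27.1 to 31.5 and 49.6 to 60.6 CPM in the 3 groups in the same order, with 4 of 8 at 0), of myeloid cells (27.0 to 31.5, 33.1 to 36.4 and 41.7 to 45.3 CPM, with 3 of 8 at 0) and of stroma and endothelium (89.4 to 94.3, 158.2 to 177.7 and 209.0 to 227.8 CPM, with 3 of 8 at 0) were higher at lower MYC, and those of B cells were lower (77.6 to 95.0, 41.4 to 45.8 and 33.1 to 34.5 CPM, with 5 of 8 at 0). Erythroid markers reached at most 1.518 CPM in sum, with 2 of 6 at 0.

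The start regions of the genes show where regulatory letters lie in the member with the largest change and in members with small ones. A RefSeq table of promoters (GRCm38.p6) held 3 of the 9 members, and the 250 bases before the start are printed 5′ to 3′ on the strand of the gene for Cd5 (chr19:10738975-10739224, minus strand), Themis (chr10:28668110-28668359, plus strand, the first of its start sites in the table) and Itm2a (chrX:107403361-107403610, minus strand). Capitals mark matches to the E box CACCTG or its reverse complement CAGGTG, letters read by E proteins.
Cd5: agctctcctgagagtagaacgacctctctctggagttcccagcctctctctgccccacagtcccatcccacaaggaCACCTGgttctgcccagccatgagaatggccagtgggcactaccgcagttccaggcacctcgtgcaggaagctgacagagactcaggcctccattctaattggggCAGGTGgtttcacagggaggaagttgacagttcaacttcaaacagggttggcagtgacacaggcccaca
Themis: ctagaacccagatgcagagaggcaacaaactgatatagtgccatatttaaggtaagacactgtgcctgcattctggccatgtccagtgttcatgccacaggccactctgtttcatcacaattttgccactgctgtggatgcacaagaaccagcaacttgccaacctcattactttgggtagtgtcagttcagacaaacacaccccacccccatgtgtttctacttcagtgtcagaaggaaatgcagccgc
Itm2a: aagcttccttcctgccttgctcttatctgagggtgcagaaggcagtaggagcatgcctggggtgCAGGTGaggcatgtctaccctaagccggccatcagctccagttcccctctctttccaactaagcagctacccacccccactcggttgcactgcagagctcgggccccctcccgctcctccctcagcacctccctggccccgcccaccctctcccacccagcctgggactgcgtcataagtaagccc
Windows of 300 bases, 250 before the start and 50 after it, were searched on both strands for CACGTG (the E box of MYC and MAX), CAGCTG and CACCTG (other E boxes), TGTGGT (RUNX), CGGAAG (ETS) and TGANTCA (AP-1), none of which overlaps another in its match here. Cd5 held CACCTG at 174 bases and CAGGTG at 69 bases before the start, and Itm2a held CAGGTG at 186 bases before it. CACCTG on either strand was found in 20.2% of all 32851 windows. The only other match lay past the second start site of Themis, a CGGAAG on the opposite strand, a motif held by 16.9% of windows. CACGTG was in none of these windows and in 7.15% of all windows. The letters of the other E box (in 16.3% of all windows), of RUNX (16.8%) and of AP-1 (7.81%) were not in these windows either. The matches are letters in a window, not measured binding.

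Both scavenger receptor coreceptors, Cd5 and Cd6, were low in MYC on, intermediate at 20 pg/mL and high in MYC off. Cd5 (ENSMUSG00000024669.7, mm10 chr19:10717116-10739002, minus strand) encodes the coreceptor whose surface level on a thymocyte tracks the strength of the selecting signal and which restrains TCR signalling. Its 3 libraries had 6.20, 5.03 and 4.80 CPM in MYC on, then 46.95, 49.72 and 50.67 CPM in MYC intermediate, and 106.71, 102.99 and 109.82 CPM in MYC off. The groups were far apart relative to their spread, and the log2 fold change was 4.29 ± 0.09 (SE) in MYC off over MYC on, the 19th highest of 14098 genes. On the log2 scale most of this lay in the first step, with a log2 fold change of 3.22 ± 0.09 in MYC intermediate over MYC on and 1.07 ± 0.08 in MYC off over MYC intermediate.

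Cd6 (ENSMUSG00000024670.16, chr19:10789341-10830058, minus strand) is the neighbour of Cd5 on chromosome 19 and encodes a related receptor that binds ALCAM. Its libraries had 36.11, 33.73 and 41.33 CPM in MYC on, then 293.24, 315.24 and 312.24 CPM in MYC intermediate, and 643.01, 575.68 and 615.94 CPM in MYC off. Cd6 was the more abundant of the pair at every level, and no library of one group reached the range of another. The log2 fold change was 4.01 ± 0.08 in MYC off over MYC on, with 3.05 ± 0.08 in MYC intermediate over MYC on and 0.95 ± 0.07 in MYC off over MYC intermediate.

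**Figure D1:**
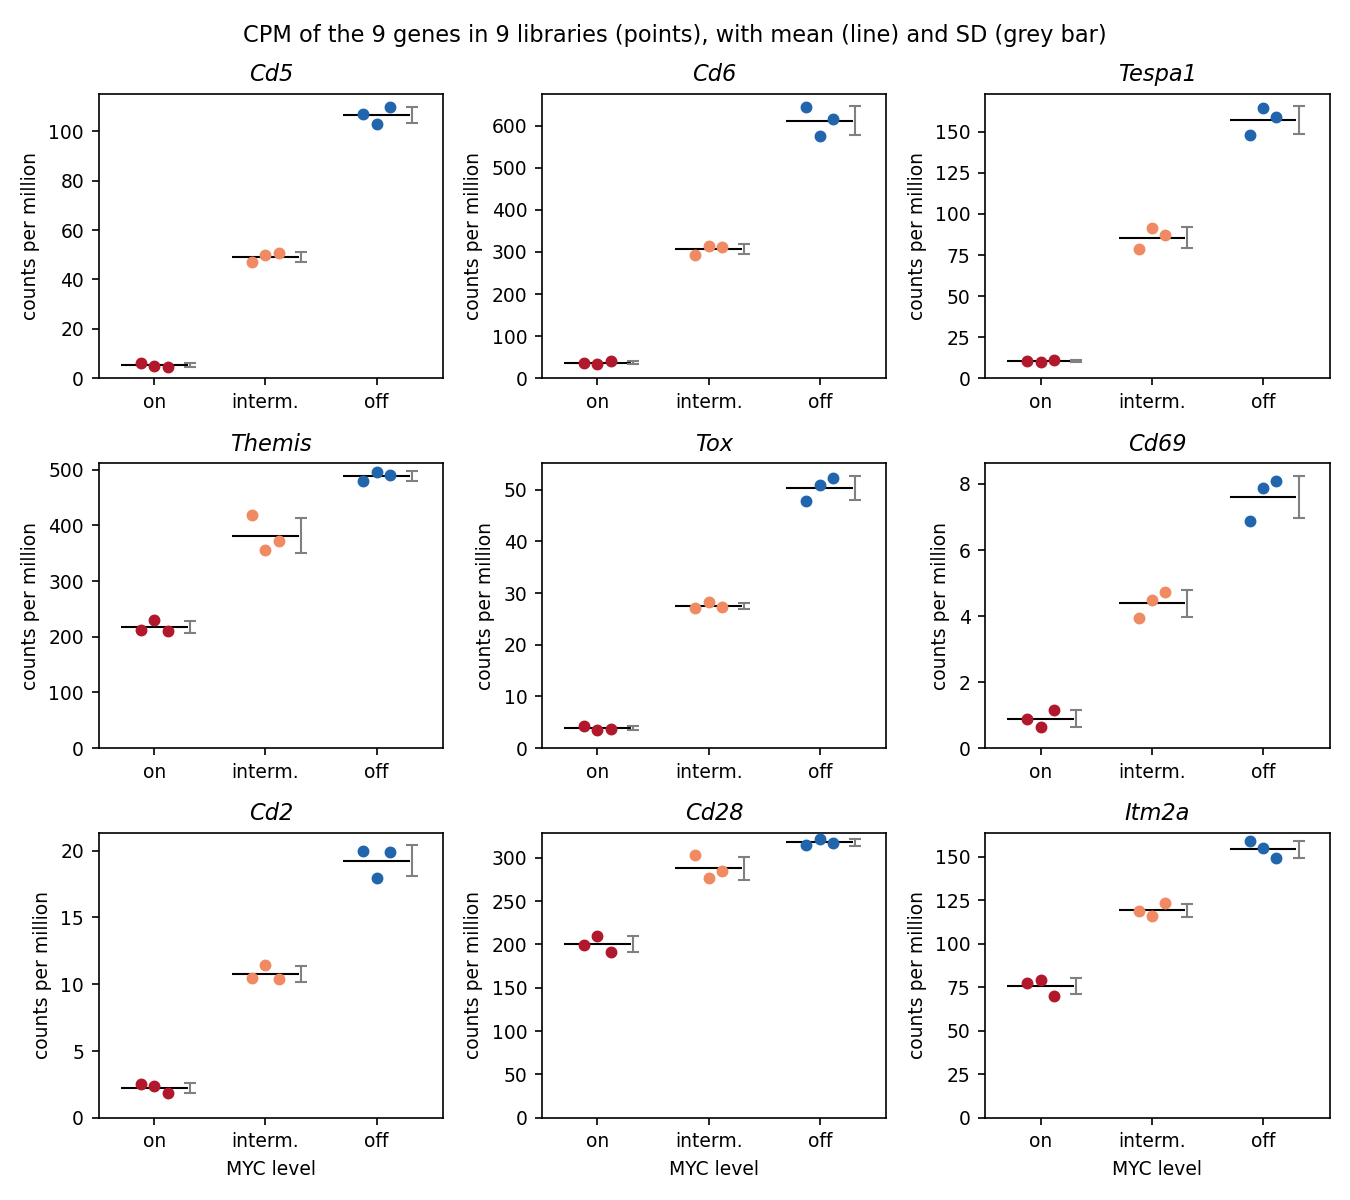
CPM (vertical axes, linear and starting at 0) of the 9 genes in each of the 9 libraries (points) at the 3 MYC levels (horizontal axes), with the group mean (line) and SD (grey bar, n = 3). In every panel the 3 MYC intermediate libraries lie above all MYC on and below all MYC off libraries, from Cd5 (49.1 CPM on average in MYC intermediate, 5.343 in MYC on and 106.5 in MYC off) to Cd28 (287.8, 200.3 and 317.9 CPM).

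The signalling proteins differed in their range, Tespa1 moving almost as far as Cd6 and Themis much less. TESPA1 links the TCR to phospholipase C gamma and calcium release, and mice without it have a block in positive selection. Tespa1 (ENSMUSG00000034833.10, chr10:130322870-130364111, plus strand) had 10.38, 10.00 and 11.21 CPM in MYC on, then 78.70, 91.22 and 87.06 CPM in MYC intermediate, and 147.81, 164.44 and 158.88 CPM in MYC off. The log2 fold change was 3.86 ± 0.08 in MYC off over MYC on, of which 3.03 ± 0.08 came with the first step and 0.83 ± 0.07 with the second.

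THEMIS binds GRB2 and the phosphatase SHP-1 and sets the response of double-positive thymocytes to weak ligands. Themis (ENSMUSG00000049109.15, chr10:28668360-28883818, plus strand) was already among the better expressed members in MYC on, at 211.27, 230.20 and 210.56 CPM, with 417.75, 356.15 and 371.17 CPM in MYC intermediate and 478.82, 496.15 and 489.90 CPM in MYC off. The MYC intermediate libraries were the most scattered for this gene (SD 32.1 CPM), yet they did not overlap with either end level. The log2 fold change was 1.13 ± 0.06 in MYC off over MYC on, 0.83 ± 0.06 in MYC intermediate over MYC on and 0.31 ± 0.06 in MYC off over MYC intermediate. Themis shares 153 exon bases with the opposite-strand pseudogene 4930519F09Rik, which had 6712 counts over the 9 libraries against 96351 for Themis, and reads of the shared bases cannot be assigned by a kit that does not mark strand.

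Tox and Cd69, genes that thymocytes switch on after a selecting signal, were low in MYC on and higher at each lower MYC level. TOX is a nuclear HMG box protein that mice need to make CD4 T cells. Tox (ENSMUSG00000041272.11, chr4:6686353-6991557, minus strand) had 4.23, 3.53 and 3.78 CPM in MYC on, then 27.09, 28.25 and 27.34 CPM in MYC intermediate, and 47.76, 50.90 and 52.35 CPM in MYC off. Its log2 fold change was 3.67 ± 0.09 in MYC off over MYC on, with 2.85 ± 0.09 in the first step and 0.82 ± 0.08 in the second. It shares 260 exon bases with the antisense gene Gm11802, which had 1306 counts against 7603 for Tox.

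CD69 is an early activation receptor that keeps cells in the thymus by opposing the egress receptor S1PR1. Cd69 (ENSMUSG00000030156.5, chr6:129267325-129275436, minus strand) was the least abundant member, with 0.886, 0.642 and 1.158 CPM in MYC on, then 3.94, 4.48 and 4.74 CPM in MYC intermediate, and 6.88, 7.87 and 8.08 CPM in MYC off. The order of the groups was the same as for Tox, at levels where few counts set the error (CV 28.9% in MYC on). The log2 fold change was 2.99 ± 0.19 in MYC off over MYC on, 2.25 ± 0.20 in MYC intermediate over MYC on and 0.75 ± 0.15 in MYC off over MYC intermediate.

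The adhesion and costimulation receptors Cd2 and Cd28 differed in both level and size of change. CD2 binds CD48 in the mouse and strengthens contact with the partner cell. Cd2 (ENSMUSG00000027863.8, chr3:101275899-101287939, minus strand) had 2.51, 2.41 and 1.84 CPM in MYC on, then 10.46, 11.44 and 10.41 CPM in MYC intermediate, and 19.94, 17.93 and 19.89 CPM in MYC off. The log2 fold change was 3.09 ± 0.13 in MYC off over MYC on, divided into 2.29 ± 0.14 and 0.80 ± 0.11 over the first and second steps.

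CD28 binds CD80 and CD86 and supplies the costimulatory signal. Cd28 (ENSMUSG00000026012.2, chr1:60716800-60773359, plus strand) had 199.86, 209.40 and 191.69 CPM in MYC on, then 302.80, 276.19 and 284.31 CPM in MYC intermediate, and 314.55, 322.09 and 317.15 CPM in MYC off. Its log2 fold change of 0.63 ± 0.05 in MYC off over MYC on was the smallest of the set. The first step held 0.54 ± 0.05 of it, and the second, 0.10 ± 0.05, was the smallest step of any member, although the libraries of MYC off and MYC intermediate did not overlap.

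Itm2a encodes an integral membrane protein with a BRICHOS domain that is induced in mouse thymocytes during positive selection. Itm2a (ENSMUSG00000031239.5, chrX:107397099-107403376, minus strand) had 77.59, 79.12 and 70.26 CPM in MYC on, then 119.05, 115.81 and 123.25 CPM in MYC intermediate, and 158.85, 154.97 and 149.09 CPM in MYC off. The groups did not overlap. Its log2 fold change was 1.00 ± 0.06 in MYC off over MYC on, 0.67 ± 0.06 in MYC intermediate over MYC on and 0.33 ± 0.06 in MYC off over MYC intermediate.

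**Figure D2:**
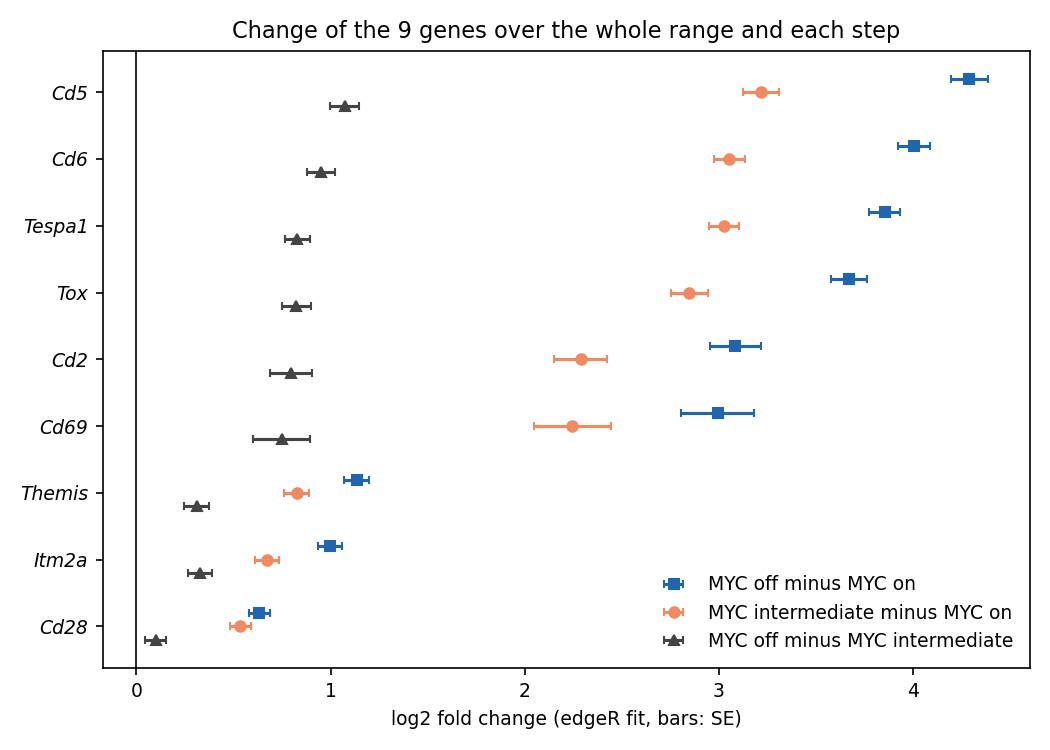
Log2 fold changes of the 9 genes (rows) for MYC off over MYC on (squares), MYC intermediate over MYC on (circles) and MYC off over MYC intermediate (triangles), with bars of 1 SE from the edgeR fit. The 6 genes from Cd5 (4.29) to Cd69 (2.99) stand to the right of Themis (1.13), Itm2a (1.00) and Cd28 (0.63), and for each gene the circle lies to the right of the triangle.

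The choice of the genes fixed most of the following counts, so nothing is read from them. At an adjusted p under 0.01 (edgeR quasi-likelihood F test, Benjamini-Hochberg over 14098 genes), 9 of 9 were called higher in MYC off than in MYC on, as were 27.5% of all genes. In MYC intermediate over MYC on 9 of 9 were called higher, against 17.4% of all genes, and in MYC off over MYC intermediate 8 of 9 (all but Cd28), against 9.95% of all genes. Both steps were called for 8 of 9 members and 6.99% of all genes. The libraries of the 3 groups were in steps without overlap for 9 of 9 members and 16.5% of all genes. The median log2 fold changes of the members were 3.09, 2.29 and 0.80 in the 3 comparisons, against 0.03, 0.01 and 0.01 over all genes.

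Per kilobase, the titration changed which of these transcripts dominated. The deposited TPM, counts over gene length scaled to a common library total, ran in MYC on from Itm2a (146.1 ± 9.59) and Cd28 (110.2 ± 5.43) through Themis (62.6 ± 3.60) and Cd6 (36.6 ± 3.72) to Cd5 (8.690 ± 1.19), Tespa1 (5.631 ± 0.31), Cd2 (4.354 ± 0.70), Tox (1.702 ± 0.15) and Cd69 (0.463 ± 0.13) (SD, n = 3 each). In MYC intermediate Cd6 (299.0 ± 16.7 TPM) had passed Itm2a (227.0 ± 10.7 TPM) and Cd28 (155.8 ± 5.76 TPM). In MYC off Cd6 reached 601.2 ± 29.1 TPM, followed by Itm2a at 296.1 ± 5.49 TPM, and Cd5 (172.3 ± 6.73 TPM) had passed Themis (139.9 ± 4.28 TPM) to the level of Cd28 (173.9 ± 4.04 TPM). Cd28 and Cd5 in MYC off were the only neighbours in any of the 3 orders whose libraries overlapped. The order from Tespa1 through Cd2 and Tox to Cd69 was kept at all 3 levels. Summed over the 9 genes, TPM were 376.3 ± 14.5, 948.6 ± 27.5 and 1530 ± 25.9 in MYC on, MYC intermediate and MYC off.

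The 20 pg/mL libraries show how far each gene had moved while hMYC was still at 408.3 CPM. The curvature is the log2 level in MYC intermediate minus the mean of those at the 2 end levels, and it is positive where the gene lies above the midpoint. It does not use the difference between the end levels, but it shares the MYC intermediate libraries with the single steps, which were also known when the genes were chosen. Curvature was 1.10 ± 0.06 for Tespa1, 1.07 ± 0.07 for Cd5, 1.05 ± 0.06 for Cd6 and 1.01 ± 0.07 for Tox (SE). These 4 genes lay at a similar distance above the midpoint, at levels from 27.6 CPM (Tox) to 306.9 CPM (Cd6) in MYC intermediate. Cd2 (0.75 ± 0.10) and Cd69 (0.75 ± 0.15) followed, and Themis (0.26 ± 0.05), Cd28 (0.22 ± 0.05) and Itm2a (0.17 ± 0.05) lay nearest to the midpoint.

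The same fit called the first 6 of these 9 genes above the midpoint, and 1.7% of all genes. Cd69 missed the threshold in 10 of 15 alternative fits, 8 of these 10 being fits without 1 library, while Themis and Cd28 passed it with DESeq2, with no count filter and with the replicate number as a block. Genes with a larger total change have more room for curvature, and the share called was 11.7% among 1229 genes called higher in MYC off than MYC on with a log2 fold change above 1, and 25.1% among the 175 above 2.5. Because curvature is built from the steps that were known when the genes were chosen, nothing is read from the number of members called.

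A position divides the first step by the whole log2 change, with 0 at the MYC on level and 1 at the MYC off level. It still depends on size and direction. At the same place on the CPM scale a larger rise gives a higher position, and a falling gene has a lower position than a rising one. It was computed for genes called between the end levels with an absolute log2 fold change above 1, which leaves out Itm2a and Cd28. The 7 members lay close together, from 0.727 ± 0.050 for Themis through 0.742 ± 0.032 for Cd2, 0.750 ± 0.016 for Cd5, 0.750 ± 0.047 for Cd69, 0.762 ± 0.016 for Cd6 and 0.776 ± 0.019 for Tox to 0.785 ± 0.016 for Tespa1 (delta-method SE). The median of the 1229 raised genes was 0.657, with quartiles of 0.558 and 0.733, and 79.3% of them lay below the median of the members. The first step and the whole change were known when the members were chosen, and the 1229 genes were not matched in fold. Nothing is therefore read from the place of the members among them. The position of hMYC, which falls, was 0.192 ± 0.008, and the 1517 genes lower in MYC off had a median of 0.474. On the linear CPM scale, an alternative chosen after the data were seen, the members lay between 0.433 (Cd5) and 0.607 (Themis), all raised genes had a median of 0.486 and hMYC lay at 0.678. The members thus had higher positions than hMYC on the log2 scale and lower ones on the CPM scale. Since they rise and hMYC falls, no order of movement is read from these positions.

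**Figure D3:**
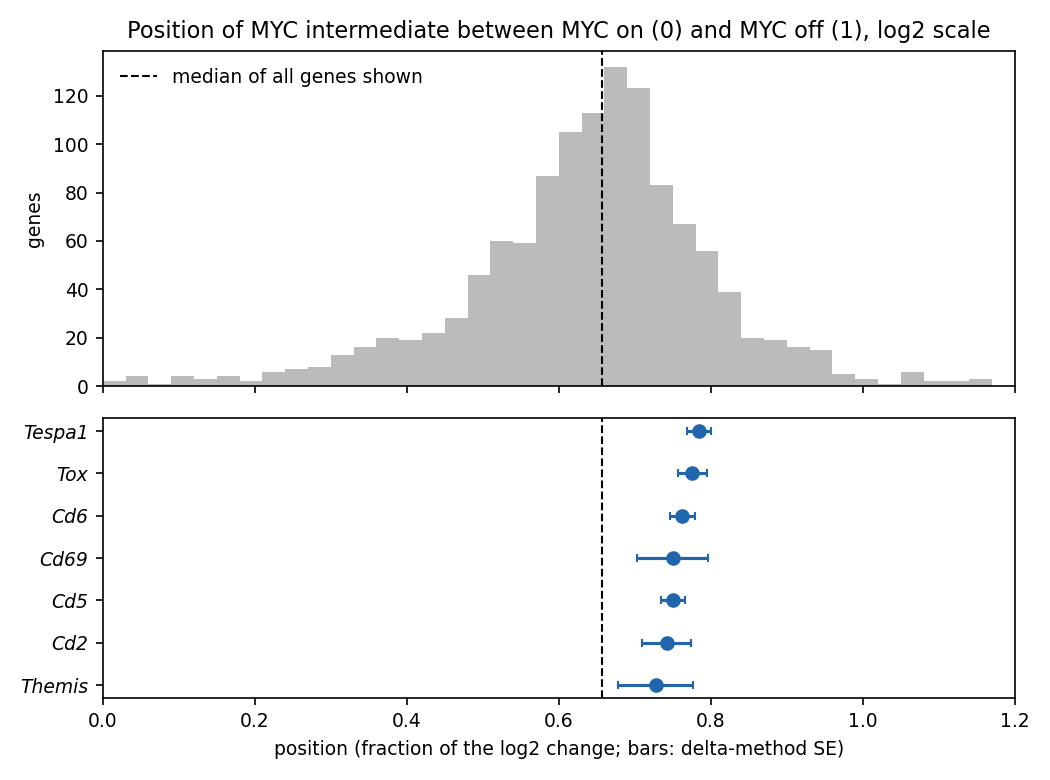
Position of MYC intermediate on the log2 scale, with MYC on at 0 and MYC off at 1. The histogram counts the 1229 genes raised in MYC off (8 outside the axis are not drawn) with their median (dashed, 0.657), and the points below are the 7 members with bars of 1 delta-method SE, all to the right of that median, from 0.727 to 0.785. The members were chosen with these steps known and the 1229 genes were not matched in fold, so nothing is read from their place.

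Genes that work with the members were counted in 5 lists written from textbook knowledge with earlier results of these data known. Of 116 genes in all, 101 were tested, of which 72 were called higher in MYC off than in MYC on, 6 lower and 23 in neither direction. Over all genes tested, 27.5% were higher and 27.4% lower. In MYC intermediate over MYC on the shares were 17.4% and 17.2%, and in MYC off over MYC intermediate 9.95% and 14.7%. The summed T cell markers given above moved with these lists, which share Lat, Lck and Bcl11b with them, and their part in the counts was not tested.

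Genes that dampen the TCR signal, or that CD5 and CD6 bind, followed Cd5 and Cd6 for the most part. Of 22 tested among 24 genes, 15 were higher in MYC off than MYC on, 3 lower and 4 not called (median log2 fold change 0.69). The adaptor Dok2, which recruits negative regulators of Ras, had 124.1 ± 1.55 CPM in MYC off and 17.8 ± 1.98 CPM in MYC on (log2 fold change 2.76 ± 0.08, edgeR adjusted p = 2.75e-13). Sit1, a transmembrane adaptor that binds SHP-2, had 243.0 ± 7.42 CPM in MYC off and 40.4 ± 1.501 CPM in MYC on (2.55 ± 0.07, adjusted p = 1.03e-13). The adaptor Sh2d2a (1.79 ± 0.07) and Laptm5, a lysosomal protein that lowers surface TCR (1.61 ± 0.06), rose as well. The 3 lower genes, named after their values were seen, were Ubash3a, a phosphatase family protein that restrains TCR signals (−1.15 ± 0.07), the MAP kinase phosphatase gene Dusp2 (−0.74 ± 0.08) and Csk, the kinase that inactivates LCK (−0.27 ± 0.06). In MYC intermediate over MYC on 12 were higher and 2 lower, and in MYC off over MYC intermediate 12 were higher and 1 lower.

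Partners of THEMIS and TESPA1 in the signalling chain below the TCR moved less than Tespa1 itself. Of 17 tested among 18 genes, 13 were higher, 0 lower and 4 not called (median 0.62), with 0 lower also at an unadjusted p under 0.05 and 0 lower by DESeq2. Lck, the kinase that starts the signal, had 3542 ± 66.4 CPM in MYC off and 1589 ± 45.6 CPM in MYC on (log2 fold change 1.12 ± 0.06, edgeR adjusted p = 1.495e-10). The adaptor gene Grap2 (1.17 ± 0.09) and the Ras activator gene Rasgrp1 (0.99 ± 0.05) also rose. The first step called 12 higher and the second 8, a count that fell to 4 without MYC off replicate 3 and to 5 without MYC off replicate 2 or MYC intermediate replicate 3.

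Transcription factors of thymocyte selection were called higher or in neither direction. Of 29 tested among 32 genes, 19 were higher in MYC off than in MYC on, 0 lower and 10 not called (median 0.69), with 0 lower also at an unadjusted p under 0.05 and 0 lower by DESeq2. Sox4 had 618.4 ± 43.6 CPM in MYC off and 205.9 ± 3.81 CPM in MYC on (log2 fold change 1.55 ± 0.05, edgeR adjusted p = 1.21e-12). Foxo1, which controls homing and survival genes (1.32 ± 0.07), and Bcl11b, which holds T cell identity (1.30 ± 0.07), rose as well, each by far less than Tox. In MYC intermediate over MYC on 18 were higher and in MYC off over MYC intermediate 9. In that second step 0 were lower at the threshold, 3 (Nr4a2, Nr4a3 and Tcf7) at an unadjusted p under 0.05 and 1 (Tcf7) by DESeq2.

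Relatives, ligands and adaptors of CD2 and CD28 moved in both directions. Of 17 tested among 22 genes, 12 were higher in MYC off than in MYC on, 2 lower and 3 not called (median 0.80). The costimulatory receptor gene Icos, a relative of Cd28, had 6.122 ± 0.45 CPM in MYC off and 0.895 ± 0.06 CPM in MYC on (log2 fold change 2.74 ± 0.17, edgeR adjusted p = 1.55e-09). Slamf1, a member of the CD2 family (1.90 ± 0.09), and Pstpip1, which binds the tail of CD2 (1.72 ± 0.08), were higher too. Lower, and named after their values were seen, were Cd2ap, another protein that binds the tail of CD2, at 25.6 ± 2.03 CPM in MYC off and 55.0 ± 4.07 CPM in MYC on (−1.13 ± 0.09), and Ctla4, the inhibitory receptor for the ligands of CD28, at 13.2 ± 0.38 CPM in MYC off and 19.3 ± 1.37 CPM in MYC on (−0.57 ± 0.09). The first step called 12 higher and 2 lower, the second 7 higher and 1 lower.

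Genes of maturation and egress, listed with the relatives of Itm2a, had the largest median change of the 5 lists, 1.63. Of 16 tested among 20 genes, 13 were higher in MYC off than in MYC on, 1 lower and 2 not called. The survival gene Bcl2 had 5.197 ± 0.72 CPM in MYC off and 0.283 ± 0.06 CPM in MYC on (log2 fold change 4.09 ± 0.27, edgeR adjusted p = 2.51e-09), as large a fold as Cd6 at a far lower level. The homing receptor gene Ccr7 (2.74 ± 0.14), the costimulatory receptor gene Cd27 (2.28 ± 0.08) and Cd52, which encodes a small surface glycoprotein (2.28 ± 0.16), were also higher. The exception, named after its value was seen, was the interleukin 7 receptor gene Il7r, at 0.910 ± 0.34 CPM in MYC off and 2.203 ± 0.60 CPM in MYC on (−1.33 ± 0.30). The first step called 12 higher and the second 11.

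**Figure D4:**
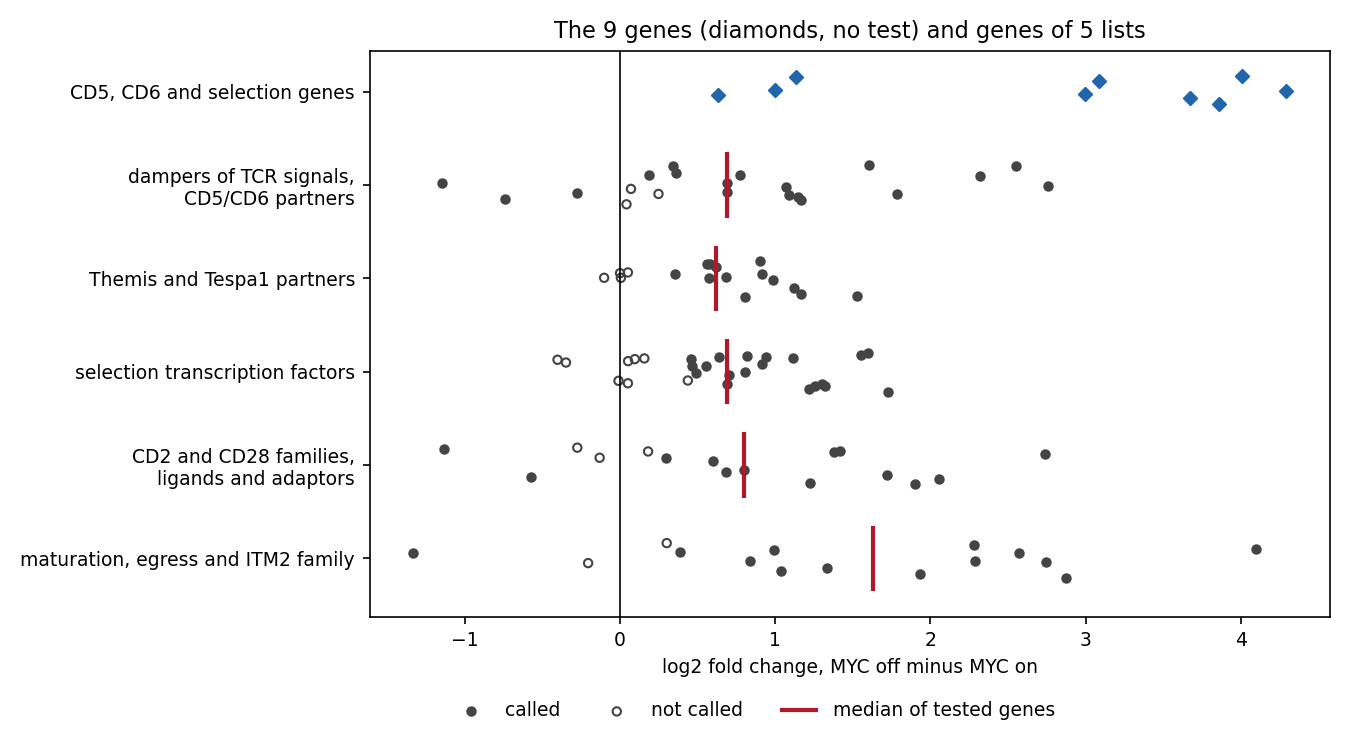
Log2 fold change in MYC off over MYC on (horizontal axis) of the 9 genes (diamonds) and of 96 tested genes in the 5 lists (filled, called at an adjusted p under 0.01, open, not called), with the median of all tested genes of each list as a red line. The 5 list genes under 1 CPM in every group are not drawn, and vertical scatter has no meaning. The medians of 0.62 to 1.63 lie left of the 6 members from 2.99 upwards, while Themis (1.13), Itm2a (1.00) and Cd28 (0.63) lie within their range. The members were chosen with this comparison known, so nothing is read from their place beside the lists.

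The nearest tested protein-coding gene on each side of the 9 members gave 16 genes that are not members, of which 6 were called higher in MYC off than in MYC on, 5 lower and 5 not called, against 27.5% higher and 27.4% lower over all genes. Genes not tested were passed over, so some of the 16 lie far off. Magohb was 2009 kb from Cd69, Rab2a 1544 kb from Tox and Bloc1s1 1399 kb from Tespa1. Cd5 and Cd6 are each other's neighbours, 50.3 kb apart on chromosome 19. On their outer sides, Vps37c, an ESCRT gene 2.489 kb from Cd5, had a log2 fold change of 0.38 ± 0.08 and Tmem109, 40.6 kb from Cd6, one of 0.12 ± 0.07 that was not called. Ctla4, 113.6 kb from Cd28, went the other way from Cd28, and Igsf3, 89.1 kb from Cd2, was lower by −0.57 ± 0.08. Only 2 neighbours with at least 1 CPM in a group came near the larger changes of the members. Gpr174, a G protein-coupled receptor gene 100.3 kb from Itm2a, had 2.439 CPM in MYC off and 0.207 CPM in MYC on (3.59 ± 0.32), a larger change than that of Itm2a. BC035044, 376.2 kb from Cd69, had 15.8 CPM in MYC off and 2.100 CPM in MYC on (2.88 ± 0.15). Vmn2r84, a vomeronasal receptor gene 13.8 kb past the end of Tespa1, had 0, 0 and 1 counts in the MYC on libraries, 8, 6 and 10 in those of MYC intermediate, and 22, 28 and 29 in those of MYC off.

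**Figure D5:**
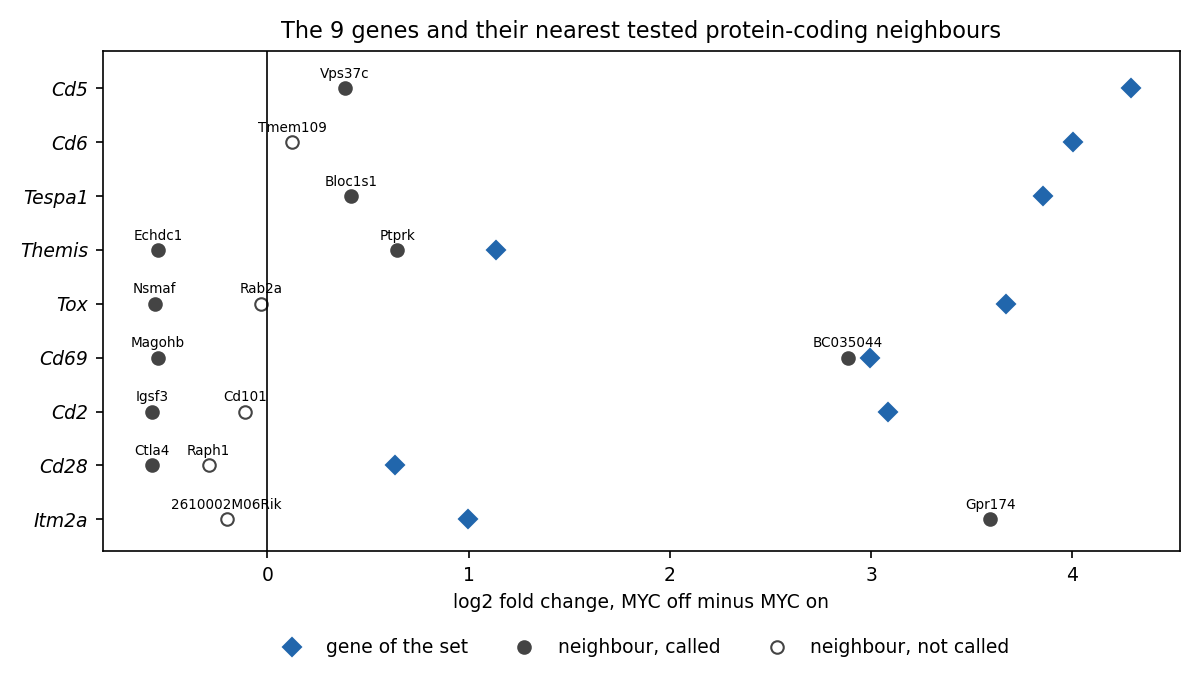
Log2 fold change in MYC off over MYC on (horizontal axis) of the 9 genes (diamonds, 1 row each) and of their nearest tested protein-coding genes that are not members (circles, filled where called at an adjusted p under 0.01). Vmn2r84, under 1 CPM in every group, is not drawn, and in all rows except that of Itm2a the diamond lies to the right of the circles. The members were chosen with this comparison known, so nothing is read from that.

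The genes with profiles most like those of Cd5 and Cd6 were also listed, a description only, since members were chosen on the same levels. Likeness was the Euclidean distance between log2 CPM profiles, each centred on its own mean, over 10952 protein-coding genes and 9 libraries that share the 3 MYC levels. Nearest to Cd6 were Tespa1 (0.321), Cd5 (0.520), Tox (0.545), Pglyrp2 (0.555) and P2rx7 (0.569). Nearest to Cd5 were Hsd11b1 (0.471), Cd6 (0.520), Eci3 (0.591), Tespa1 (0.638) and Tox (0.788). Hsd11b1, which activates glucocorticoids inside cells, had 3.499, 40.0 and 86.4 CPM in MYC on, MYC intermediate and MYC off, close to Cd5 in level as well as in shape. Cd2 and Cd69 ranked 25th and 37th in likeness to Cd5, while Themis ranked 632nd, Itm2a 834th and Cd28 1584th. Profiles were centred but not scaled, so this distance also counts the size of the change, which was smallest in Themis, Itm2a and Cd28. Shape apart from size was not compared.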

How the data were processed

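RNA was copied with oligo(dT) priming into libraries that do not mark strand. Named in the submitters' processing notes are mm10, featureCounts, STAR 2.5.4b and cutadapt 1.16. The annotation release and the strand setting are not given in the sources used here. The authors deposited 1 table per library with raw counts per gene, used for all tests, and TPM (counts per gene length scaled to a common total), used only to order genes. GENCODE M21 matched 53274 of 53380 identifiers without their version number and gave positions.

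Counts were tested in R 4.3.3 with edgeR 4.0.16 (TMM, filterByExpr, quasi-likelihood F test, two-sided) in 1 fit of all 9 libraries with group as the term, adjusted by Benjamini-Hochberg over 14098 genes and called at an adjusted p under 0.01. DESeq2 1.42.0, other scalings and filters, a replicate block, 6-library fits and each library left out were alternatives. Promoters came from RefSeq.

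The members, lists and tests were chosen with earlier results of these data known. Named genes are the members, hMYC, from each list the 4 called genes of largest fold that reached 5 CPM in a group, the neighbours, and the 5 genes nearest in pattern to Cd5 and Cd6. Some genes that this rule names are not reported here.

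Whether replicates were separate cultures is not given in the labels, so p-values measure only the spread between libraries, and counts cover counting error only. Same-numbered libraries of MYC off and MYC on deviated together (r = 0.375, 0.253 and 0.219 across 9944 genes), while r was 0.132, −0.180 and −0.165 for MYC intermediate and MYC on and 0.371, 0.034 and 0.084 for MYC off and MYC intermediate. Only MYC off and MYC on thus had a positive r over 0.1 in all 3 pairs, and what a number marks is not given in the labels.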

Additional observations from a re-analysis of the deposited data

How the results depend on the processing

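The 9 genes kept their direction in all 3 comparisons under every alternative run. The median log2 fold change of the members ranged from 3.05 to 3.27 in MYC off over MYC on and from 2.24 to 2.52 in MYC intermediate over MYC on when 1 library was left out, the highest value of each being that without MYC on replicate 3, where Cd69 in place of Cd2 is the median member. With the replicate number as a block, 8 in place of 6 members were called above the midpoint, Themis and Cd28 being added, as also with DESeq2 and with no count filter, and 430 in place of 266 genes were called in curvature over all genes. DESeq2 called 484, no count filter 850, and fits without 1 library 122 to 386. Fits without 1 library called 5 or 6 members. In the 3 comparisons between levels, the block and the other alternatives kept 9, 9 and 8 members called higher, with Cd28 not called in MYC off over MYC intermediate throughout. Cd69 lost its curvature call with library size alone (adjusted p = 0.0135), with upper quartile scaling (0.0147) and without any 1 of 8 libraries. Among partners of THEMIS and TESPA1, 4 to 8 genes were higher in MYC off over MYC intermediate when 1 library was left out, 8 with all. Among selection transcription factors, 0 were lower in that step, 1 by DESeq2, 2 without a count filter and 0 to 1 with 1 library left out. Upper quartile scaling moved the median of all genes in MYC off over MYC on to 0.10, less than any log2 fold change of a member in that comparison. In MYC off over MYC intermediate it moved that median to 0.076, near the 0.098 of Cd28. That value of Cd28 ranged from 0.075 to 0.168 over the alternatives, so its size depends on the scaling and the libraries used. The mean of Cd69 in MYC on, under 1 CPM, rests on 12 to 34 counts per library. Other levels under 1 CPM can rest on fewer, as for Vmn2r84 in MYC on (0, 0 and 1 counts).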
